A study of Homo sapiens with 4 samples.

Results

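U87MG and U251 are human glioblastoma cell lines, and the response of each to knockdown of the splicing factor SRSF1 was compared gene by gene to find which functions responded differently in the 2 lines. The members were the mRNA rows with an RPKM (reads per kilobase, scaled for sequencing depth) of at least 5 in at least 1 library of each line, and 6904 of the 19784 mRNA rows, of 40205 rows in all, met this rule. For each member the knockdown ratio of a line was log2 of (knockdown RPKM + 1) over (control RPKM + 1), and the line difference was the U87MG ratio minus the U251 ratio. A negative line difference therefore means a lower ratio in U87MG, and a positive one a higher ratio there. Pairs of RPKM values below give the control first and the knockdown second. The groups were U87MG with the control hairpin sh-NC, which the titles call WT, U87MG with sh-SRSF1, called KD, and the same pair in U251. All 4 were grown in DMEM with fetal bovine serum, infected with lentivirus at an MOI of 20, and kept under puromycin for a week, so the controls also carry a hairpin, a virus and the selection. Each group was 1 library of poly(A) RNA read paired-end. With 1 library per line and arm the line difference has 0 residual degrees of freedom, so values are given and no test, and the spread between cultures is unknown.

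SRSF1 is a serine/arginine-rich protein that binds exonic sequence and acts in constitutive and alternative splicing, in mRNA export and in translation, and it is abundant in many tumours. Genes for DNA replication are driven in late G1 and S phase largely by E2F factors, and genes for mitosis in G2 and M phase by complexes that bind the CHR element. Genes for lysosomal proteins can be driven together by TFEB and related factors at E-box sequences, sterol genes by SREBP factors when membrane sterol is low, and genes for ribosome assembly by MYC, which also binds E-boxes. In bulk RNA a smaller share of cycling cells and less of these mRNAs per cell cannot be told apart.

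The reads behind the values numbered 25099799 to 27953878 per library, and 1 read in a 1 kb gene model was worth 0.0358 to 0.0398 RPKM. Counting error of a line difference, from the recovered reads, had a median 95% half-width of 0.15 across members, and it covers counting error only. SRSF1 went from 88.3 to 14.6 RPKM in U87MG, against 109 to 15.8 in U251. Its line difference was 0.20, so the target was lower to a like extent in both lines, with a share of 0.59 of its 31-base words also found in another gene. The glial lineage was only in part visible in the markers: VIM and CD44 were high in all 4 libraries, SOX2 stood at 47.9 and 49.3 RPKM in U251 and at most 0.12 RPKM in U87MG, and AQP4 was at 0 in every library. Of 8 immune markers 2 reached 1 RPKM in any library, and their summed level was 64.0 and 111 RPKM in U87MG, nearly all of it CD68, a lysosomal membrane protein, while CD3E and MS4A1 were at 0. The summed endothelial markers stayed between 0.59 and 1.40 RPKM. In U251 the summed epithelial markers were 27.6 and 25.8 RPKM, mostly KRT18, and the fibroblast markers 182 and 186 RPKM, mostly COL1A2, with little change between the arms.

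The knockdown ratios were spread more widely in U87MG than in U251. The interquartile range of the ratio was 0.56 in U87MG and 0.44 in U251, 1.28 times as wide, and the ratios of the lines correlated across members with Pearson r = 0.67, a description over genes of 4 libraries. The median ratio was -0.09 in U87MG and 0.03 in U251, and the median line difference was -0.11, with 4396 members (63.7%) below 0. A line difference of at least 1 was found in 55 members (0.797%) and of at most -1 in 80 members (1.16%). The counting interval left out 0 for all 135 of them. Their choice by size nearly fixes this, since the half-width was 0.15 at the median and 0.43 at the 99th percentile of members. It is therefore no support for these differences. The split depended on scaling: 49 members were at most -1 and 62 at least 1 after quantile normalization, so that 55.9% rather than 40.7% of these members were on the U87MG-higher side.

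Most members that were at least 2-fold lower in U87MG were lower by less than 2-fold in U251, while most that were at least 2-fold lower in U251 were so in U87MG too. By the knockdown ratio, with 1 added to each RPKM, 329 members were at least 2-fold lower in U87MG (4.77%) and 107 in U251 (1.55%). By the same ratio 116 were at least 2-fold higher in U87MG (1.68%) and 69 in U251 (0.999%). All 2-fold counts use this ratio, so a gene of low RPKM can fall short of 2-fold though its RPKM alone does not. Of the 329, the U251 ratio was also at least 2-fold lower in 63, lower by 0.5 to 1 on the log2 scale in 175, lower by less in 81 and at or above 0 in 10. Of the 107 in U251, the U87MG ratio was also at least 2-fold lower in 63, lower by 0.5 to 1 in 32, lower by less in 7 and at or above 0 in 5. Of the higher members, 33 were at least 2-fold higher in both lines, out of 116 in U87MG and 69 in U251. Over all members, 1416 (20.5%) were lower in U87MG and higher in U251, and 611 (8.85%) the reverse.

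**Figure D1:**
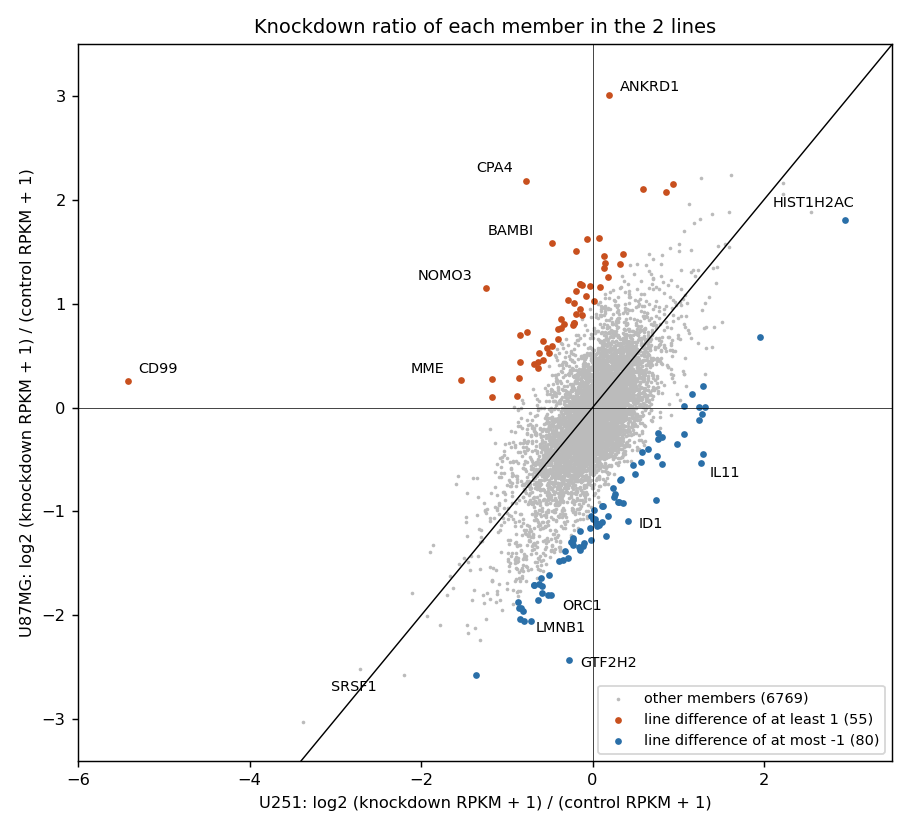
Each point is 1 of the 6904 members, with its log2 knockdown ratio in U251 on the x axis and in U87MG on the y axis, and the diagonal marks equal ratios. The 55 orange points lie at least 1 above the diagonal and the 80 blue points at least 1 below it, and SRSF1 lies near the diagonal at -2.71 and -2.52.

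Genes for DNA replication had the lower ratios in U87MG almost without exception. The list of origin licensing and fork genes had 48 members. Of these 47 had a line difference below 0 and 7 one of at most -1, beside 63.7% and 1.16% of all members. The median ratio of the list was -1.21 in U87MG and -0.32 in U251. Its median line difference was -0.77, beside -0.11 over all members. In the knockdown 32 of the 48 were at least 2-fold lower in U87MG and 7 in U251, beside 4.77% and 1.55% of all members. The ratio was below 0 for 47 of the 48 in U87MG and for 44 in U251, beside 57.7% and 46.1% of all members. MCM6, a subunit of the replicative helicase, went from 72.1 to 28.1 RPKM in U87MG, against 34.0 to 31.4 in U251. Its sister subunit MCM3 went from 117 to 55.0 RPKM in U87MG, against 84.2 to 85.8 in U251. Both helicase genes thus had less than 50% of the control level in the U87MG knockdown and a level within 10% of the control in U251. CDT1, which loads the helicase onto origins, went from 10.7 to 3.60 RPKM in U87MG, against 11.3 to 9.99 in U251. Among genes for nucleotide supply, IMPDH2, which makes guanine nucleotides, went from 166 to 85.4 RPKM in U87MG, against 176 to 174 in U251. RRM2, the small subunit of ribonucleotide reductase, was lower in both lines, from 113 to 18.2 RPKM in U87MG, against 171 to 66.2 in U251.

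Mitotic genes differed in the same direction, with median U251 ratios further below 0 than that of the replication list (-0.32). All 43 members of the list of mitotic kinases, kinetochore and spindle checkpoint genes had a line difference below 0, beside 63.7% of all members. At least 2-fold lower were 39 in U87MG against 2 in U251, beside 4.77% and 1.55% of all members. The medians were -1.40 in U87MG and -0.67 in U251. All 12 mitotic kinesins were at least 2-fold lower in U87MG and none was in U251, with medians of -1.52 and -0.64. KIF15, a spindle motor, went from 15.1 to 3.45 RPKM in U87MG, against 16.9 to 10.5 in U251. CIT, a kinase of the cleavage furrow, went from 16.7 to 4.07 RPKM in U87MG, against 12.9 to 8.71 in U251. TPX2, which activates Aurora A at the spindle, went from 146 to 47.2 RPKM in U87MG, against 160.5 to 112 in U251. In each of these genes both knockdown libraries were below their controls, with the wider gap in U87MG. Condensin and cohesin genes had medians of -1.15 and -0.55 over 18 members.

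Of the methylation and Polycomb list, 3 genes of maintenance DNA methylation were among the 5 largest line differences by absolute size. DNMT1, the maintenance methyltransferase, went from 78.3 to 33.7 RPKM in U87MG, against 120 to 109 in U251. UHRF1, which brings DNMT1 to replicated DNA, went from 17.1 to 5.40 RPKM in U87MG, against 24.4 to 16.5 in U251. HELLS, a remodelling factor needed for methylation, went from 18.8 to 5.05 RPKM in U87MG, against 15.7 to 10.0 in U251. These 3 had lower levels in both knockdown libraries, with the wider gap in U87MG. The whole list of 16 members did not stand apart in its share below 0, with 10 of 16 (62.5%) beside 63.7% of all members, and its median line difference was -0.23.

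Genes of G1 cyclins, their kinases and inhibitors lay on both sides. Of 14 members 10 had a line difference below 0 (71.4%, beside 63.7% of all members), and the median was -0.36. CKS1B, a subunit of cyclin-dependent kinases, went from 22.1 to 10.2 RPKM in U87MG, against 37.4 to 35.7 in U251. CDC25A, the phosphatase that activates these kinases, went from 16.2 to 7.61 RPKM in U87MG, against 12.6 to 11.97 in U251. Both differed in the direction of the replication genes. CDKN1A, the kinase inhibitor p21, had the highest line difference of the list, 1.28, and went from 49.9 to 53.7 RPKM in U87MG, against 9.08 to 3.45 in U251. CCNE1, the cyclin of S phase entry, went from 27.5 to 27.6 RPKM in U87MG, against 14.7 to 7.31 in U251. CDKN1A and CCNE1 were lower in the U251 knockdown only.

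Histone genes also had lower ratios in U87MG, but most were above their controls in both lines. Only 6 of the 29 histone genes looked up were members, and all 6 had a line difference below 0, beside 63.7% of all members. H2AFX, the variant phosphorylated at DNA breaks, went from 25.2 to 12.2 RPKM in U87MG, against 55.3 to 43.8 in U251. Poly(A) selection takes up only the polyadenylated part of replication-dependent histone mRNA, which normally ends in a stem loop. HIST1H1C, a linker histone, went from 21.8 to 35.6 RPKM in U87MG, against 18.8 to 75.7 in U251. HIST1H2AC went from 6.74 to 26.1 RPKM in U87MG, against 9.69 to 81.2 in U251. HIST1H1C and HIST1H2AC had higher RPKM in each knockdown library than in its control.

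Promoter sequences are shown for a replication, a mitotic and a lysosomal gene, because these 3 groups had large line differences and the motifs known for each can be read in the letters. Promoters of 5836 members were matched in the RefSeq table on GRCh38.p14, each 300 bases from 250 before to 50 after the start. The E2F letters searched, on both strands, were TTTGGCGC, TTTCCCGC, TTTGCCGC and TTTCGCGC, which can overlap each other. They occurred in 18 of 42 replication promoters (42.9%), in 6.49% of member promoters and in 3.34% of all 27195 promoters. The CHR letters TTTGAA occurred in 20 of 34 promoters of the mitotic kinase list (58.8%) and in 0 of 42 replication promoters. They occurred in 9.6% of member promoters and in 15.4% of all 27195 promoters. CACGTG, the E-box, occurred in 9 of 26 lysosomal promoters (34.6%), in 12 of 40 promoters of ribosome biogenesis genes (30%) and in 11.1% of member promoters. The longer form TCACGTGA, which contains the E-box, occurred in 5 of 26 lysosomal promoters (19.2%), 0 of 40 of ribosome biogenesis genes and 2.36% of member promoters. The sterol letters TCACNCCAC occurred in 0 of 11 sterol gene promoters and in 1.06% of member promoters. Among promoters of members with a line difference of at most -1, 15.5% held an E2F match and 25.9% a CHR match. For members at 1 or above the shares were 6.82% and 11.4%. The E-box occurred in 5.17% of the first set and 9.09% of the second, and its longer form in 0% and 4.55%. The first set was chosen by line difference and includes replication and mitotic genes described above. Over all members the median line difference was -0.164 with an E2F match and -0.105 without one. For CHR these medians were -0.183 and -0.103, for the E-box -0.092 and -0.113, and for its longer form -0.035 and -0.112. A match is a description of letters, not of binding. Capitals mark the matches: E2F in MCM6 (chr2:135876394-135876693, reverse strand), CHR in SPC25, a kinetochore gene (chr2:168890381-168890680, reverse strand), and the E-box in CTSA (chr20:45891085-45891384, forward strand).
MCM6: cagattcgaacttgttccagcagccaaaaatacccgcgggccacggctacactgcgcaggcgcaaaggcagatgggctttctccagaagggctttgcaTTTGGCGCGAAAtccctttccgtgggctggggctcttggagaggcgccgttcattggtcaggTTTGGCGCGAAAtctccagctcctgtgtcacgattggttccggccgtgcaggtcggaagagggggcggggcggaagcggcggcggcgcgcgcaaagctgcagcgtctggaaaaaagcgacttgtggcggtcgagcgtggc
SPC25: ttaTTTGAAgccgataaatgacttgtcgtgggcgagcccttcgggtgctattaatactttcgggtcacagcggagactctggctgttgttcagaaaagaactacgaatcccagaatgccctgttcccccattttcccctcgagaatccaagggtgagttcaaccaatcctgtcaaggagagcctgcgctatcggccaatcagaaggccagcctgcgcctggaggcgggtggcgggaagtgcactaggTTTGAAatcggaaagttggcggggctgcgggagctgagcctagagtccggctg
CTSA: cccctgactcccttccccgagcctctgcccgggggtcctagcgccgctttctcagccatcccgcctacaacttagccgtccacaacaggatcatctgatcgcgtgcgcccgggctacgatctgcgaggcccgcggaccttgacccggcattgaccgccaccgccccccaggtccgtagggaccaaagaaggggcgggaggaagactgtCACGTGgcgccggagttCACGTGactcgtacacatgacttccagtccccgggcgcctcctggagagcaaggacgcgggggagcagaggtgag

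Lysosomal genes had the higher ratios in U87MG. Of 39 members 4 had a line difference below 0 and 1 reached 1, beside 63.7% and 0.797% of all members. The median ratio of the list was 0.57 in U87MG and 0.08 in U251, and its median line difference was 0.42. HEXA, a subunit of beta-hexosaminidase, went from 13.3 to 24.1 RPKM in U87MG, against 10.4 to 8.81 in U251. CTSA, the protective protein of lysosomal sialidase, went from 59.8 to 122 RPKM in U87MG, against 32.6 to 34.7 in U251. Its partner sialidase NEU1 went from 12.6 to 19.9 RPKM in U87MG, against 20.9 to 18.0 in U251. NPC2, which carries cholesterol out of lysosomes, went from 40.4 to 60.5 RPKM in U87MG, against 44.6 to 35.0 in U251. These 4 genes were higher in the U87MG knockdown, and all but CTSA were lower in the U251 knockdown. Over the 39 members, 35 had a ratio above 0 in U87MG, and in U251 22 were above and 17 below 0. Only 13 were higher in U87MG and lower in U251, beside 8.85% of all members. The exceptions included GUSB, beta-glucuronidase, with a line difference of -0.37, and the transcription factor gene TFE3 with -0.19. CD68, counted above among immune markers, was higher in both knockdown libraries (111 RPKM in U87MG and 10.7 in U251). The immune marker PTPRC was at or below 0.02 RPKM in each library. The part of other cells in the lysosomal values was not tested. Subunits of the proton pump ranged from -0.10 for ATP6V1A to 0.67 for ATP6V1F.

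The lists of 2 neighbouring functions, autophagy and chaperones of the endoplasmic reticulum, also lay above the median line difference of all members (-0.11). Their medians were nearer to it than that of the lysosomal list. Above the median of all members were 17 of 22 autophagy and 29 of 30 chaperone members. The shares with a line difference below 0 were 31.8% and 23.3%, beside 63.7% of all members. The autophagy list had a median line difference of 0.04 over 22 members, with 1.70 for the ubiquitin ligase gene FBXO32, 0.91 for WIPI1 and 0.88 for MAP1LC3A at the high end and -0.56 for ATG7 and ATG16L1 at the low end. WIPI1, which binds the forming autophagosome, went from 54.7 to 120 RPKM in U87MG, against 10.1 to 11.8 in U251. Genes for chaperones of the endoplasmic reticulum had medians of 0.38 in U87MG and 0.18 in U251 over 30 members, of which 7 had a line difference below 0. HSP90B1, the abundant chaperone of that compartment, went from 2712 to 3844 RPKM in U87MG, against 579 to 540 in U251.

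Sterol genes were split. Of 16 members 4 had a line difference of at least 1, against 0.797% of all members, and 5 had one below 0, against 63.7%. INSIG1, which holds back SREBP processing, went from 107 to 145 RPKM in U87MG, against 18.2 to 9.69 in U251. SQLE, the squalene epoxidase, went from 21.2 to 27.9 RPKM in U87MG, against 35.5 to 22.4 in U251. STARD4, a sterol carrier, went from 10.2 to 12.7 RPKM in U87MG, against 9.53 to 4.81 in U251. In these 3 genes the difference lay mostly in the U251 knockdown, which was below its control. LSS, lanosterol synthase, differed through U87MG, from 8.46 to 24.98 RPKM there, against 5.45 to 6.07 in U251. EBP, a late sterol isomerase, had a line difference of -0.65, and FDFT1, the squalene synthase, one of 0.22. SCD, which desaturates fatty acids, went from 37.9 to 71.5 RPKM in U87MG, against 23.5 to 20.5 in U251.

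Genes for ribosome assembly moved apart in sign between the lines. Of 49 members 48 had a line difference below 0, beside 63.7% of all members. A ratio below 0 in U87MG and above 0 in U251 was found in 31, beside 20.5% of all members. The median ratio was -0.24 in U87MG and 0.21 in U251, and its sign in each line was kept under trimmed-mean rescaling, quantile normalization and scaling to the sum over members. TCOF1, the treacle factor of ribosomal DNA transcription, went from 41.8 to 23.1 RPKM in U87MG, against 42.4 to 51.1 in U251. NOB1, the nuclease that matures the small subunit RNA, went from 48.5 to 32.6 RPKM in U87MG, against 48.1 to 55.8 in U251. LYAR, a nucleolar factor, went from 161 to 93.5 RPKM in U87MG, against 116 to 115 in U251. NOP10, a subunit of box H/ACA particles, was the exception with 0.57. NOP2, at -0.85, shares 0.84 of its words with another gene and is uncertain.

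The proteins of the finished ribosome differed far less. The 79 cytosolic ribosomal protein genes had a median line difference of -0.11, equal to that of all members, and none reached 1 in either direction. The 76 mitochondrial ribosomal protein genes had a median of -0.23, with MRPL16 from 42.1 to 18.2 RPKM in U87MG, against 57.2 to 55.9 in U251. Core spliceosome genes had a median of -0.28 over 41 members and nucleoporin and transport genes -0.28 over 52. IPO5, an import receptor, went against its list, from 101 to 243 RPKM in U87MG, against 79.1 to 89.7 in U251. The median GC content was 48.4% for ribosome biogenesis, 51.2% for lysosomal and 47.7% for replication members. Over 5 bins of members by GC content the median line difference ran from -0.03 at 38.1% GC to -0.19 at 59.9% GC, and the part of GC content in the list values was not tested.

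**Figure D2:**
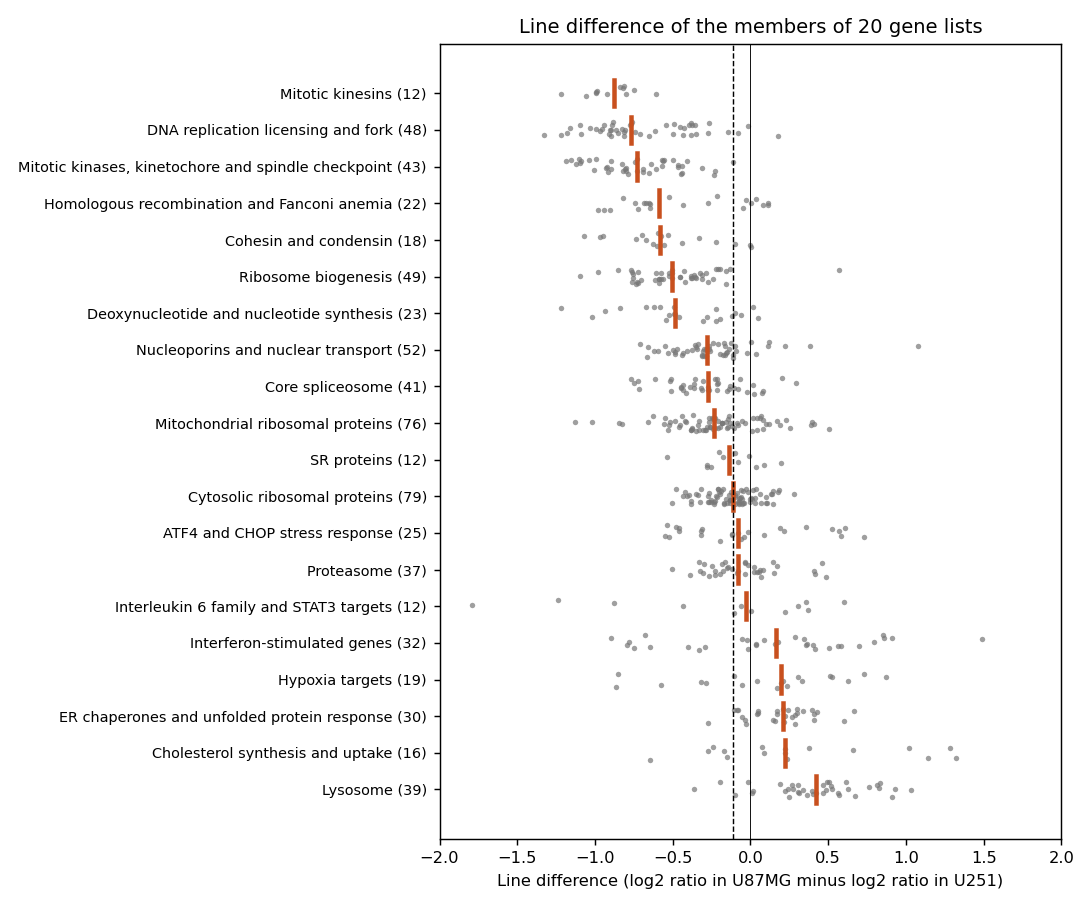
Each grey point is 1 member of a gene list (number of members in brackets), placed by its line difference, with orange bars at the list medians, a dashed line at the median of all members (-0.11) and a solid line at 0. Kinesin, replication and mitotic lists lie to the left (medians -0.88, -0.77 and -0.73) and the lysosome list to the right (0.42).

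**Figure D3:**
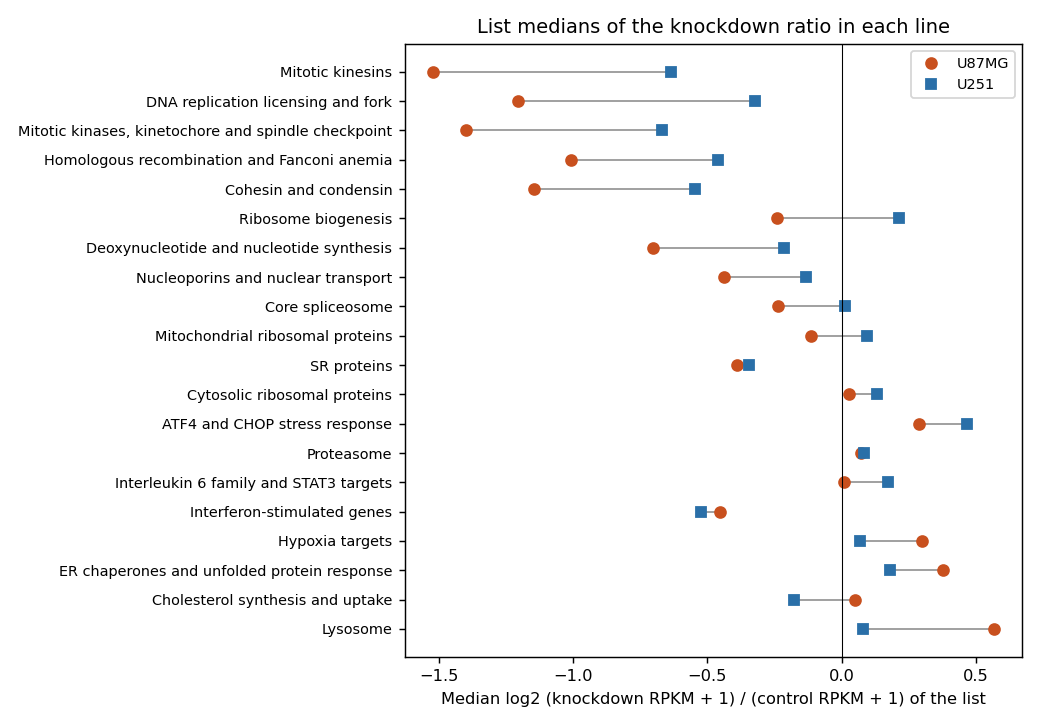
For the same 20 gene lists, circles give the median log2 knockdown ratio in U87MG and squares that in U251. The mitotic lists are below 0 in both lines, ribosome biogenesis lies on either side of 0 (-0.24 and 0.21), and the interferon-stimulated genes have medians of -0.45 and -0.52.

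IL11, SOCS3 and HBEGF had line differences of -1.79, -1.23 and -1.03, and their change was mainly in U251. IL11, a cytokine of the interleukin 6 family, went from 10.8 to 7.16 RPKM in U87MG, against 22.7 to 55.8 in U251. SOCS3, a feedback inhibitor of that family's signalling, went from 14.1 to 14.2 RPKM in U87MG, against 7.83 to 19.9 in U251. LIF, another ligand of the family, went from 19.6 to 11.3 RPKM in U87MG, against 25.9 to 28.6 in U251. The 12 members of the list had a median line difference of -0.03 with 6 below 0, so these 3 do not stand for the whole list. HBEGF, a ligand of the EGF receptor, went from 27.9 to 30.6 RPKM in U87MG, against 3.82 to 9.77 in U251. VEGFA went from 154 to 116 RPKM in U87MG, against 30.1 to 41.8 in U251.

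Genes for 2 cell surface proteins had a like pattern. PLAUR, the urokinase receptor, went from 109 to 102 RPKM in U87MG, against 28.4 to 49.8 in U251. NT5E, the ectonucleotidase CD73, went from 326 to 273 RPKM in U87MG, against 29.4 to 62.6 in U251. Both were higher in the U251 knockdown only. MMP2, a gelatinase, went the other way, from 69.1 to 181 RPKM in U87MG, against 16.7 to 22.9 in U251. SLC1A3, the glial glutamate transporter, went from 13.4 to 12.8 RPKM in U87MG, against 13.5 to 34.2 in U251.

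In the TGF-beta and BMP list the median line difference was near 0 (-0.004 over 15 members), with its 2 extremes on either side. ID1, a BMP target that inhibits basic helix-loop-helix factors, went from 29.2 to 13.1 RPKM in U87MG, against 87.8 to 117 in U251. BAMBI, a decoy receptor, went from 2.12 to 8.37 RPKM in U87MG, against 5.01 to 3.34 in U251. The YAP and TEAD list had 15 of 19 members below 0 (78.9%, beside 63.7% of all members) and a median line difference of -0.16. Its lowest was NT5E at -1.32. ANKRD1, a muscle ankyrin repeat protein, was its highest at 2.82, against the direction of most of the list, and went from 0.67 to 12.5 RPKM in U87MG, against 31.5 to 36.3 in U251. The U87MG control value of ANKRD1 rests on 35 reads, and by reads the line difference was 4.01 (95% counting interval 3.51 to 4.51).

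The glucose transporter genes SLC2A1 and SLC2A3 had higher ratios in U87MG, unlike the glycolysis list as a whole (median line difference -0.07 over 22 members). Next in the list by absolute size were ENO2 (0.94), PDK1 (0.87) and HK2 (0.73), in the same direction. Of the 22, 14 were below 0 (63.6%, beside 63.7% of all members). SLC2A1, the GLUT1 transporter, went from 8.53 to 20.5 RPKM in U87MG, against 41.2 to 37.6 in U251. SLC2A3, the GLUT3 transporter, went from 18.2 to 84.2 RPKM in U87MG, against 2.33 to 5.40 in U251. It was higher in both knockdown libraries.

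Some members had clear ratios of opposite sign. ST3GAL1, a sialyltransferase, went from 57.0 to 38.8 RPKM in U87MG, against 3.38 to 6.66 in U251. AGPAT9, an acyltransferase of glycerolipid synthesis, went from 24.8 to 17.7 RPKM in U87MG, against 7.30 to 13.0 in U251. POP5, an RNase P subunit, went from 17.6 to 10.97 RPKM in U87MG, against 11.5 to 16.7 in U251. MAP2K3, a kinase upstream of p38, had a line difference of -1.09, and the T-box factor TBX3 one of -1.03. In the reverse direction, CPA4, a carboxypeptidase, went from 0.99 to 8.01 RPKM in U87MG, against 123 to 71.8 in U251. IFIH1, the double-stranded RNA sensor MDA5, went from 6.36 to 11.2 RPKM in U87MG, against 27.2 to 15.6 in U251. KRT15, a keratin, went from 6.92 to 11.8 RPKM in U87MG, against 5.81 to 2.78 in U251. LITAF and UNK had line differences of 1.22 and 1.11. Signs stayed opposite in all of these under the 3 other scalings. The interferon-stimulated genes as a list had median ratios of -0.45 in U87MG and -0.52 in U251 over 32 members. Their median line difference was 0.17, which is 0.28 above that of all members (0.27 to 0.47 over the alternative settings that kept a filter). In U251 30 of the 32 had a ratio below 0 and in U87MG 21, beside 46.1% and 57.7% of all members. Of the 32, 10 were higher in U87MG and lower in U251, beside 8.85% of all members.

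**Figure D4:**
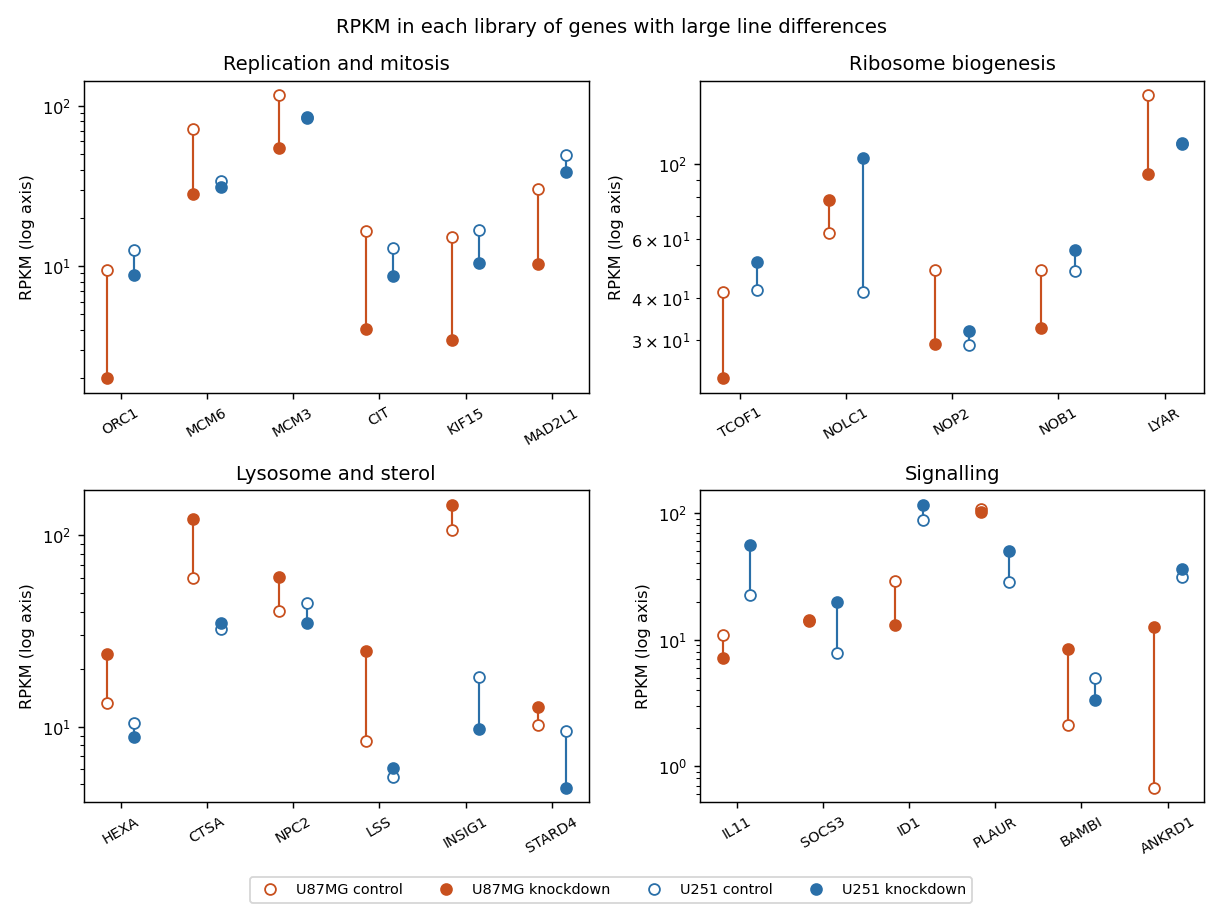
RPKM on a log axis for 23 genes in the 4 libraries, open circles for the control and filled circles for the knockdown of each line, 1 library each. MCM3 is at 117 and 55.0 RPKM in U87MG beside 84.2 and 85.8 in U251, and PLAUR is higher only in the U251 knockdown (49.8 RPKM).

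Several of the largest line differences belonged to genes with near-identical copies, among which reads can be divided differently in each library. A share of at least 0.5 of the 31-base words occurred in another gene in 235 of 6890 matched members (3.41%), in 8 of the 55 with a line difference of at least 1 (14.5%) and in 5 of 79 with one of at most -1 (6.33%). NOMO3 went from 8.33 to 19.8 RPKM in U87MG, against 28.6 to 11.5 in U251, a line difference of 2.40. Summed over NOMO1, NOMO2 and NOMO3 the levels were 81.1 and 76.3 RPKM in U87MG and 98.2 and 92.2 RPKM in U251, a line difference of 0.003. GTF2H2, a subunit of the TFIIH factor, had the lowest line difference of all, -2.16, and the sum of its 3 copies gave -0.55. SMN1 and SMN2, the survival motor neuron genes, had line differences of 1.04 and -1.01, and their sum -0.07. For CBWD3 the line difference of 1.44 became 0.07 over the 5 copies. CD99, the highest of all at 5.68, rests on 1 read in the U251 knockdown against 1388 in its control, and lies in the pseudoautosomal region, where 11 of 14 genes looked up were listed at 0 in all 4 libraries. By reads its line difference was 10.9 (exact 95% counting interval 8.37 to 16.2), and VAMP7, another such gene, went from 7.41 to 0.03 RPKM in U87MG, against 10.9 to 0.15 in U251. How the authors' pipeline divided reads between copies was not tested.

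**Figure D5:**
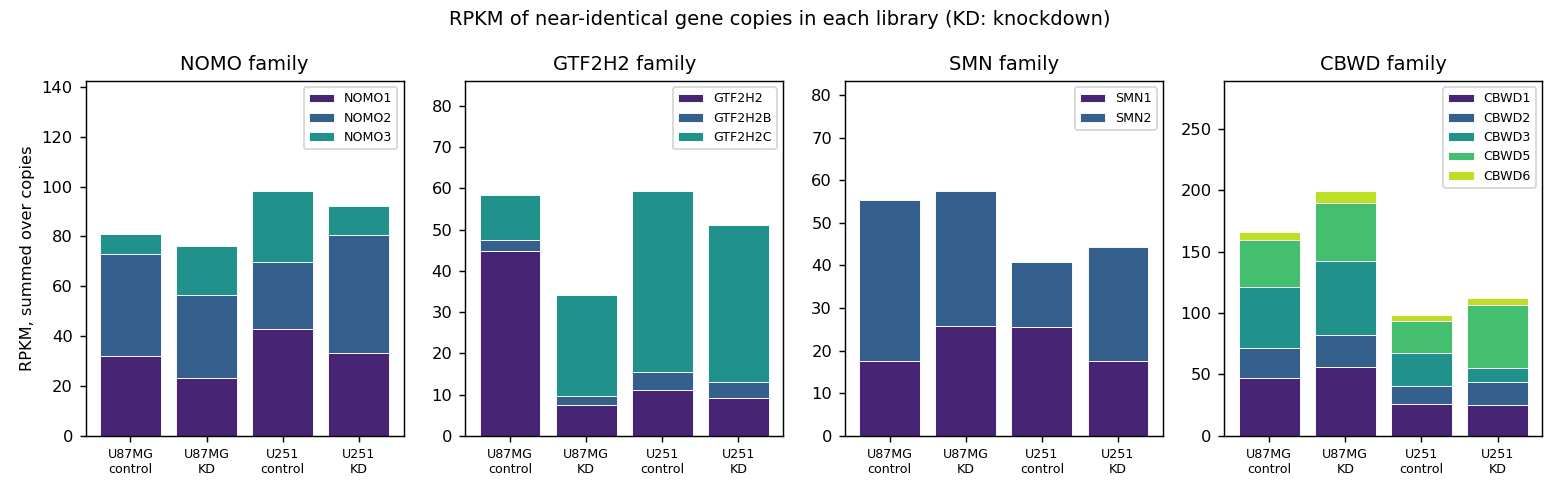
Stacked bars give the RPKM of the copies of 4 gene families in each library (KD: knockdown). The NOMO3 segment is larger in the U87MG knockdown and smaller in the U251 knockdown, while the NOMO totals are 81.1, 76.3, 98.2 and 92.2 RPKM.

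At the edge of the rule, RBM12B and MED22 lay just outside with highest values of 4.994 and 4.998 RPKM in their weaker line, and BMPR1A and TUFT1 just inside with 5.001 and 5.002 RPKM.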

How the data were processed

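Poly(A) RNA from 4 libraries, 1 per cell line and arm, was analysed from the RPKM table the authors deposited, scaled to gene length and library size. The submitters' processing notes name Bowtie 0.12.2 and the build hg19. How reads were counted, on which annotation and strand, and how multiple matches were treated is not given in the sources used here. Reads of a gene and of one that overlaps it, or lies antisense, may therefore be mixed.

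Groups came from the sample titles. A pseudocount of 1 was added before log2, which understates changes of low genes. Whole reads were recovered for 6904 of 6904 members within 0.01 reads, from the value of 1 read in small RNA genes, for gene models up to 40000 bases. Counting intervals (95%, log scale, exact below 10 reads) come from these reads, without the pseudocount, so they can lie outside the value with it. The steps were tested on simulated reads.

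The members and the 57 gene lists were chosen with earlier results of these data known. Named genes were the 15 highest and 15 lowest line differences, 6 of each kind with opposite signs, and up to 5 per list described, by absolute line difference. Uncharacterised names and pseudogenes were left out. Pseudogenes were first recognised by the ending of the symbol, which wrongly dropped genes such as IGFBP6 and POP5. After the values were seen this was replaced by the RefSeq gene type. Other genes named, the genes plotted, the promoters printed and the lists described at length were also chosen after their values were seen. Transcripts of GENCODE 29 served for 31-base words and GC content. Scripts ran in Python 3.11.15 (pandas 2.3.3, numpy 2.4.6, scipy 1.17.1). Alternatives covered pseudocount, filter and scaling. Values of some list members are not reported here.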

Additional observations from a re-analysis of the deposited data

Results flagged for a closer look

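These genes had ratios of opposite sign in the 2 lines, 1 library per arm, and the difference was not tested. Lower in U87MG and higher in U251 were IL11 (line difference -1.79), ST3GAL1 (-1.35), AGPAT9 (-1.22), POP5 (-1.13), MAP2K3 (-1.09) and TBX3 (-1.03). Higher in U87MG and lower in U251 were CPA4 (2.95), NOMO3 (2.40), KRT15 (1.54), IFIH1 (1.49), LITAF (1.22) and UNK (1.11). NOMO3 has near-identical copies, and the sum over them gave 0.003.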

How the results depend on the processing

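No paired analysis was possible because each line and arm has 1 library and the labels give no replicate numbers. For the same reason no library could be left out. The count of members with a line difference of at least 1, 55 as reported, was 28 with a pseudocount of 5, 100 with a minimum of 1 RPKM, 32 with a minimum of 10 RPKM and 192 with no filter. The count at or below -1, 80 as reported, was 132 with a pseudocount of 0.1, 22 with a pseudocount of 5, 149 with no filter and 49 after quantile normalization. All 55 and 48 of the 80 stayed past 1 under the 3 other scalings. Relative to the median of all members, the replication, mitotic kinase and kinesin medians (-0.66, -0.62 and -0.77) were -0.42, -0.46 and -0.52 with a pseudocount of 5. With the U251 ratios stretched to the U87MG spread, the mitotic kinase and kinesin medians were -0.40 and -0.60. List medians were not computed for the setting with no filter. Over the other settings the lysosome median stayed between 0.46 and 0.56, ribosome biogenesis between -0.43 and -0.34 and the sterol list between 0.21 and 0.40. The matrix protease median, 0.23, was -0.047 with a minimum of 1 RPKM, and the cause was not tested. Of 273 named genes, 4 changed sign after quantile normalization, 3 with a pseudocount of 5, 2 with the stretched ratios, 1 after trimmed-mean rescaling and 0 with a pseudocount of 0.1. Many more moved by over their counting half-width: 66, 104, 103, 6 and 20 in the same order of settings. With the stretched ratios 10 of 47 list medians, relative to all members, moved by over the median half-width of their members. Leaving out near-identical copies gave 47 and 75 members past 1. That setting and scaling to the sum over members were added after the data were seen. With 1 library per group, depth limits only the counting error, and the spread between cultures cannot be estimated.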

Other observations

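The rule for named genes also took these 5 members, which stand for no group. ITGAV, the integrin alpha V subunit, went from 23.8 to 25.9 RPKM in U87MG, against 64.8 to 34.6 in U251, while the integrin list had a median line difference of -0.03 over 14 members. GDF15, a stress-induced secreted factor, was higher in both knockdown libraries, from 24.0 to 64.2 RPKM in U87MG, against 4.75 to 9.03 in U251. PTX3, a secreted pentraxin, was likewise higher in both, from 28.4 to 138 RPKM in U87MG, against 4.44 to 15.7 in U251. PTN, the growth factor pleiotrophin, went from 64.1 to 26.7 RPKM in U87MG, against 147 to 164 in U251. FTH1, the ferritin heavy chain, went from 1370 to 2801 RPKM in U87MG, against 231 to 276 in U251, and shares 0.51 of its words with another gene.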
